A study of Mus musculus with 8 samples.

Results

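The change that lipopolysaccharide (LPS) alone made to each transcript of wild type mouse macrophages was set against the change it made in macrophages of α7nAChR-/- mice, which lack Chrna7 and so the α7 subunit of the nicotinic acetylcholine receptor. Of 24339 genes in the deposited table, 7477 had a mean of at least 5 FPKM over the 4 libraries concerned, and all of these were compared, whatever their response. FPKM is the number of sequenced fragments scaled to the length of the transcript and to the fragments of the whole library. All cells were labelled as peritoneal macrophages of C57BL/6 mice, cultured overnight before use. The 4 libraries were wild type with vehicle, wild type with LPS, knockout (α7nAChR-/-) with vehicle and knockout with LPS. All 4 had a 15 min incubation with vehicle in place of nicotine, and then received either 100 ng/ml of LPS or its vehicle for 4 h. The series holds 4 further libraries with the same combinations of genotype and LPS, in which nicotine at 10 µM filled the 15 min. Each group was 1 library, so no spread between replicates could be measured, and a difference between 2 libraries has no p-value. Neither the number of mice behind a library nor a shared cell preparation is labelled, and genotype therefore cannot be told apart from the preparation of the cells. In RNA of whole cultures, fewer cells of a type and less RNA per cell cannot be told apart either. At the edge of the selection, Tet3 lay just inside with a mean of 5.003 FPKM (8.73, 2.51, 6.33 and 2.44 FPKM) and L3mbtl2 just outside with 4.997 FPKM (6.21, 4.72, 5.82 and 3.24 FPKM). Here and below, 4 values in a row are given in the order wild type with vehicle, wild type with LPS, knockout with vehicle and knockout with LPS.

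LPS, a component of the outer membrane of Gram-negative bacteria, is recognised by Toll-like receptor 4 together with CD14 and MD-2. Through the adaptor MyD88 the receptor activates NF-kB and AP-1, which switch on cytokines and chemokines within hours, and through the adaptor TRIF it activates IRF3, which switches on interferon-β. Interferon-β then acts back on the macrophages and induces antiviral genes. The α7 receptor is a ligand-gated ion channel through which acetylcholine and nicotine are known to lower the release of TNF by macrophages. The 4 libraries without nicotine ask whether the response to LPS depends on the receptor when no agonist is added.

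Chrna7 itself was listed at 0 FPKM in all 8 libraries, and could not serve as a check of the genotypes. Low values may be estimates that failed, since Gapdh, which every cell uses, was listed at 1.52, 8.90, 2.50 and 2.90 FPKM. The macrophage genes Adgre1 (289, 298, 329 and 421 FPKM), Csf1r (689, 265, 675 and 318 FPKM), Cd68, Itgam and Lyz2 were high in all 4 libraries. The FPKM of all genes added up to 413052 and 795630 in the wild type libraries and to 442307 and 854016 in the knockout libraries, so both LPS libraries summed to nearly the same multiple of their vehicle library. Read depth was not given, and the precision that depth would set is therefore unknown.

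In broad outline the genes that differed with LPS were shared by both genotypes. A difference of at least 2-fold on the FPKM + 1 scale, which is used for every fold and log2 value below and understates the changes of low genes, was called for 1837 genes upwards and 974 downwards in wild type (24.6% and 13.0% of the genes compared). In knockout macrophages 1633 genes were called upwards and 761 downwards (21.8% and 10.2%). The split between the directions depended on scaling, since both medians were above 0 (0.28 in wild type and 0.26 in knockout). With each library centred on its median the counts were 1357 and 1327 in wild type and 1188 and 1094 in knockout, and with quantile scaling 1343 and 1555, and 1165 and 1361. Genes called upwards in both numbered 1371, which is 74.6% of the wild type list and 84.0% of the knockout list, and 648 were called downwards in both (66.5% and 85.2%). Of the 466 genes called upwards in wild type only, 90 had changes that differed between the genotypes by at least 2-fold, so most of them lay on either side of the threshold with similar changes. Likewise, of the 262 genes called upwards in knockout only, 64 had changes that differed between the genotypes by at least 2-fold. Across the 7477 genes the changes in the 2 genotypes had a Pearson correlation of 0.92, given as a description, since genes are not independent.

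**Figure D1:**
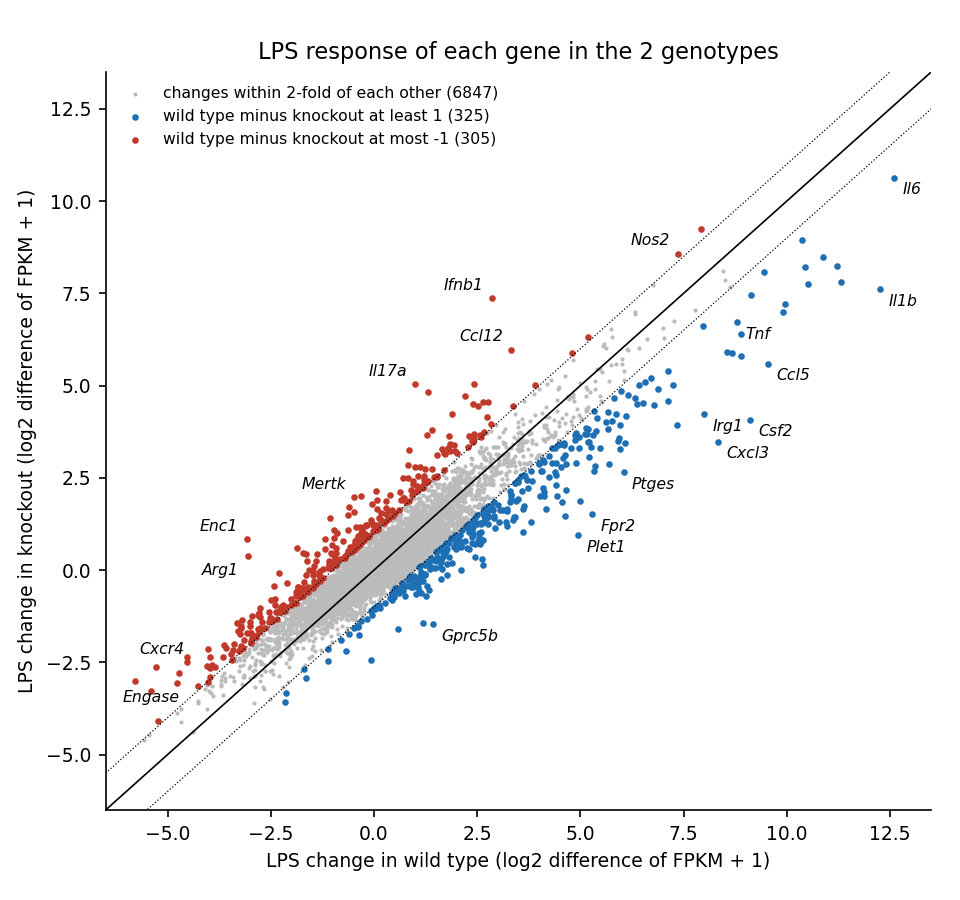
LPS change of each of 7477 genes in wild type (horizontal axis) and knockout macrophages (vertical axis), as log2 differences of FPKM + 1 between 1 LPS and 1 vehicle library. The solid line marks equal changes and the dotted lines a 2-fold difference between them. 325 genes lie below the lower dotted line and 305 above the upper one, with most inflammatory genes of the largest changes below it.

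The measure used from here on is the LPS change in wild type minus the LPS change in knockout, in log2 units. It was at least 1 for 325 genes (4.35%), called greater in wild type, and at most -1 for 305 genes (4.08%), called greater in knockout. Wild type thus held 51.6% of these calls. This share depended on the filter, at 65.3% when only genes averaging 20 FPKM or more were kept, 46.0% with 1 FPKM or more and 45.2% with no filter. The middle of the distribution was narrow, with a median of -0.01 and quartiles of -0.31 and 0.29, and the 5th and 95th percentiles were -0.93 and 0.94. Of the genes greater in wild type, 250 were higher with LPS in both genotypes, 56 were higher in wild type and lower in knockout, and 19 were lower in both. Genes greater in knockout were mixed: 101 were higher with LPS in both, 117 were lower in both, by more in wild type, and 87 were lower in wild type and higher in knockout. The excess in wild type sat among abundant genes. Among 452 genes with a mean of 200 FPKM or more, 19.0% were greater in wild type and 2.43% in knockout. Among 2051 genes with a mean of 5 to 10 FPKM these shares were 2.44% and 4.63%. Each count for a gene list below is to be read against 4.35% and 4.08% of all genes. Lists of abundant genes are to be read against the shares of such genes.

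By arithmetic, a difference between the 2 changes is the gap between the genotypes in the vehicle libraries less the gap in the LPS libraries, so each gene can be described by where its gap lay. Of the 325 genes greater in wild type, 163 had a gap of at least 2-fold in the vehicle libraries only, where the knockout level was higher before LPS was added. In 71 genes the gap lay only in the LPS libraries, where the knockout level was lower. Both gaps passed 2-fold in Cxcl3 and Serpinb2, and neither did in 89 genes. Of the 305 genes greater in knockout, 113 had a gap only in the LPS libraries, where the knockout level was higher, and 70 only in the vehicle libraries, where it was lower. Both gaps passed in Enc1 and Mxi1, and neither in 120. Over all 7477 genes the knockout vehicle library was at least 2-fold higher for 4.68% and lower for 2.07%, and the knockout LPS library higher for 4.21% and lower for 1.90%. Since the gaps make up the difference of changes, these counts describe it and add no support to it.

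**Figure D2:**
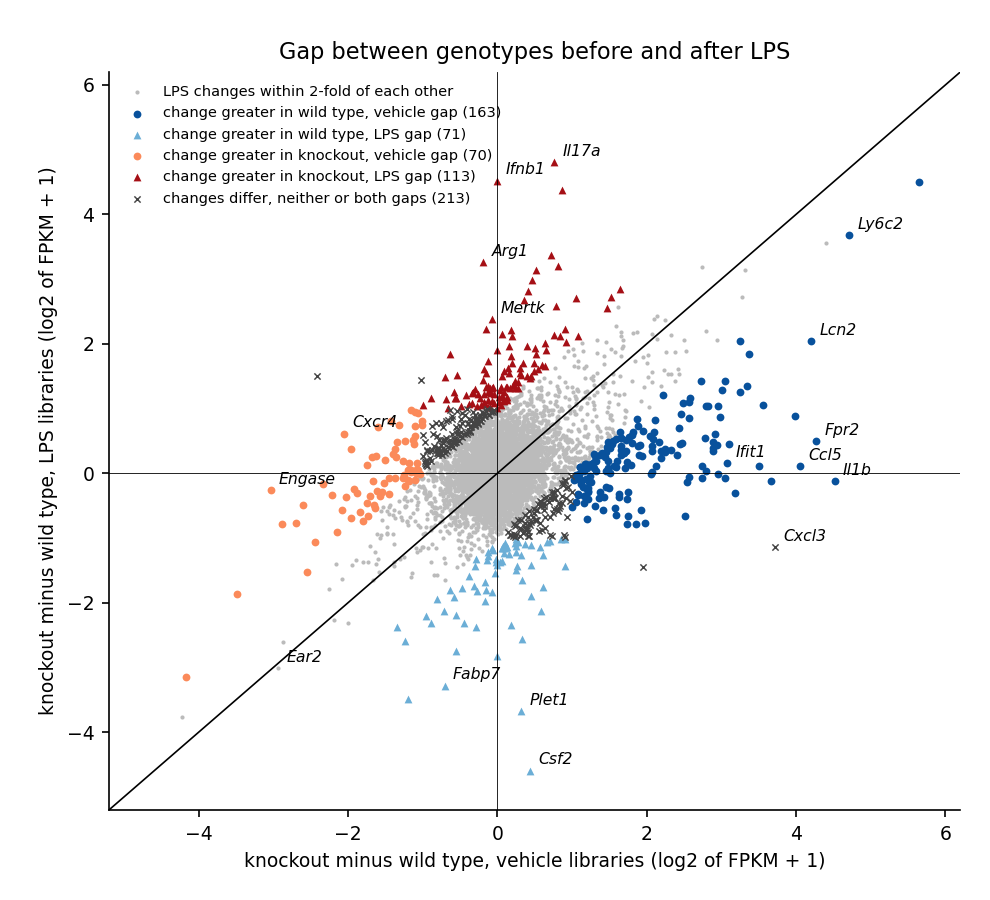
Knockout minus wild type level of each gene in the vehicle libraries (horizontal axis) and in the LPS libraries (vertical axis), as log2 differences of FPKM + 1 between 2 single libraries. Genes on the solid line have equal LPS changes in both genotypes. Il1b, Fpr2 and Ccl5 lie far to the right near a vertical value of 0, whereas Ifnb1, Il17a, Csf2 and Plet1 lie far above or below a horizontal value near 0.

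Inflammatory cytokines were the group with the most extreme members. Of the 20 on this list that were compared, 8 were greater in wild type and none in knockout, against 4.35% and 4.08% of all genes. The median difference was 0.65 against -0.01 for all genes. The cytokine genes Ifnb1, Il17a, Il17f and Il22, which were greater in knockout and are described below, are not on this list. Csf2, encoding the growth factor GM-CSF (chromosome 11, 54247271 to 54249667, minus strand, GRCm38), had the highest value of any gene at 5.04, with levels of 0.0939, 604, 0.486 and 24.1 FPKM. It was near 0 without LPS in both genotypes, and the wild type LPS library held 24.1-fold more than the knockout one. Il1b, encoding interleukin 1β (chromosome 2, 129364570 to 129371139, minus strand), followed among cytokines with a difference of 4.64 and levels of 2.97, 19504, 89.9 and 17894 FPKM. Its gap had the opposite position, as both LPS libraries reached nearly the same level while the knockout vehicle library stood 22.9-fold above the wild type one. Il1a, encoding interleukin 1α, had the same shape at 3.49, 11377, 39.9 and 9202 FPKM (difference 3.49).

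Tnf and Il6, cytokines commonly used to read out the cholinergic pathway, were also greater in wild type through the vehicle libraries. Tnf was at 9.88, 4806, 44.3 and 4794 FPKM, a difference of 2.06, and with LPS the genotypes held almost equal levels. Il6 was at 0.264, 7857, 5.31 and 10058 FPKM, a difference of 1.96, and its knockout LPS level was the higher of the 2. With 5 in place of 1 added to the FPKM, which damps low values, the difference of Il6 was 0.61. The remaining cytokines greater in wild type were Tnfsf9, Lif and Osm. At the other end of the list stood Il12a, encoding a subunit of interleukin 12, at 0.507, 79.1, 0.624 and 149 FPKM (difference -0.80, or -1.02 with quantile scaling). Il10, encoding the anti-inflammatory interleukin 10, was at 0.352, 29.0, 0.788 and 52.8 FPKM, and its difference of -0.44 was within 2-fold.

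Chemokines went both ways, with 9 of 22 greater in wild type and 4 in knockout (median 0.92), against 4.35% and 4.08% of all genes. Those greater in wild type were led by Cxcl3, a neutrophil attractant, and Ccl5. Cxcl3 was at 5.74, 2188, 87.7 and 990.1 FPKM (difference 4.86), higher in knockout before LPS and lower with it. Ccl5, a T cell and monocyte attractant, was at 17.7, 13986, 311 and 15078 FPKM (difference 3.95), with a gap in the vehicle libraries only. Cxcl10, an interferon-inducible ligand of CXCR3, was at 4.17, 7244, 34.4 and 10567 FPKM (difference 2.23). The chemokines Ccl4 (2.75), Cxcl2 (2.74), Cxcl1 (2.38), Ccl17 (2.41), Cxcl13 and Pf4 completed the group. The 4 greater in knockout were the monocyte attractants Ccl12 and Ccl2 and the other ligands of CXCR3, Cxcl9 and Cxcl11. Ccl12 was at 0.239, 11.4, 1.04 and 127 FPKM (difference -2.65), near 0 without LPS in both genotypes and 10.3-fold higher in the knockout LPS library. Cxcl11 was at 0, 4.31, 0.0482 and 22.6 FPKM and Cxcl9 at 3.14, 27.0, 6.12 and 166 FPKM, so Cxcl10 parted from the 2 other CXCR3 ligands in this measure.

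Enzymes that make inflammatory mediators also split, 8 of 26 greater in wild type and 2 in knockout (median 0.38), against 4.35% and 4.08% of all genes. Irg1, whose product makes itaconate, an antimicrobial metabolite, was at 17.4, 4733, 232 and 4367 FPKM (difference 3.78). The 2 enzymes that act in turn in the synthesis of prostaglandin E2 had the same form. Ptgs2, the inducible cyclooxygenase, was at 0.508, 3572, 10.7 and 3555 FPKM, a difference of 2.96, and Ptges, the prostaglandin E synthase, at 9.87, 719, 123 and 775 FPKM, a difference of 3.40. In each of the 3 the LPS libraries lay within 1.08-fold of each other, and the knockout vehicle library was 7.75-fold or more above the wild type one. Serpinb2, an inhibitor of plasminogen activators, was at 32.6, 5409, 129 and 1982 FPKM (difference 3.40). The 2 enzymes greater in knockout both use arginine. Nos2, the inducible nitric oxide synthase, was listed at 0 in wild type with vehicle and stood at 164, 2.11 and 1189 FPKM in the other 3 libraries (difference -1.22). That value rests on the amount added to the FPKM, since it was -0.47 with 0.5 in place of 1. Arg1, encoding arginase 1 (chromosome 10, 24915221 to 24927484, minus strand), was at 82.8, 9.04, 72.8 and 95.4 FPKM (difference -3.45). Arg1 was thus 8.35-fold lower with LPS in wild type and 1.31-fold higher with it in knockout, and only the wild type LPS library was low.

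**Figure D3:**
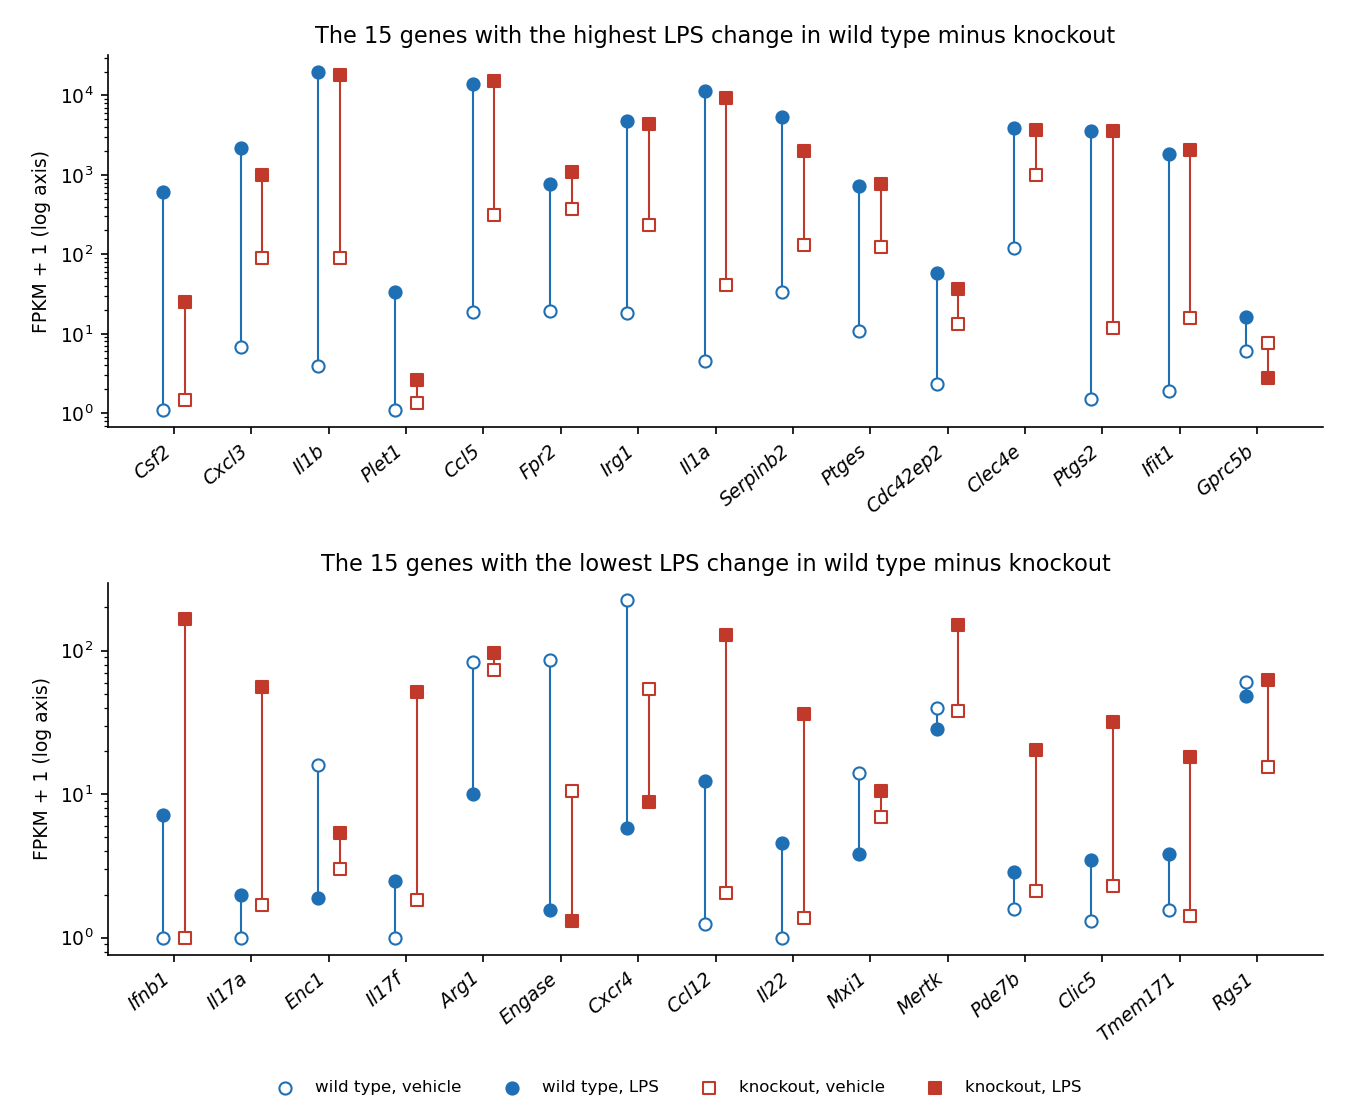
FPKM + 1 on a log axis for the 15 genes with the highest (upper plot) and the 15 with the lowest (lower plot) wild type minus knockout LPS change. Circles are wild type and squares knockout, open symbols vehicle and filled symbols LPS, each 1 library, and lines join the 2 libraries of a genotype. In the upper plot the filled symbols of most genes lie close together and the open ones apart, with Csf2 and Plet1 as the reverse.

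Among the leading 15 genes greater in wild type were also receptors and genes of less settled roles in macrophages. Fpr2, a formyl peptide receptor, was at 18.5, 762, 376 and 1072 FPKM (difference 3.78) and Clec4e, the receptor Mincle for mycobacterial glycolipids, at 121, 3892, 1009 and 3722 FPKM (difference 3.12). Both were already abundant in the knockout vehicle library. Cdc42ep2, an effector of the GTPase CDC42, was at 1.32, 56.8, 12.3 and 35.6 FPKM (difference 3.18). Plet1, a surface protein of epithelial progenitors, was at 0.0942, 32.7, 0.364 and 1.64 FPKM (difference 3.99). Plet1 stayed at 1.64 FPKM in knockout with LPS, where Csf2 reached 24.1 FPKM. Like Csf2, Plet1 was near 0 without LPS and by far the highest in wild type with LPS. Shisa3 (listed at 0 in both vehicle libraries, then at 51.0 FPKM in wild type and 6.36 FPKM in knockout with LPS) and Penk, the enkephalin precursor (0.257, 28.4, 0.883 and 5.76 FPKM), had this form too.

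Interferon-β stood at the opposite pole. Ifnb1 (chromosome 4, 88522025 to 88522774, minus strand) was listed at 0 in both vehicle libraries and reached 6.21 FPKM in wild type and 165 FPKM in knockout with LPS. Its difference of -4.52 was the lowest of all 7477 genes. Of the 19 genes of the interferon pathway compared, 4 were greater in wild type, among them the transcription factors Irf7 and Irf1 and the kinase Jak2, and 2 in knockout, Ifnb1 and the myeloid transcription factor Irf8 (71.4, 68.7, 47.5 and 166 FPKM, difference -1.84). Irf7, which amplifies interferon production, was at 7.28, 909, 61.7 and 1388 FPKM (difference 2.31). Jak2 was at 16.9, 441, 40.6 and 359 FPKM (difference 1.51), whereas Stat3 was within 2-fold at 29.6, 119.6, 38.2 and 209.6 FPKM (difference -0.44).

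Antiviral genes induced by interferon did not follow Ifnb1. Of 41 compared, 18 were greater in wild type and none in knockout, against 4.35% and 4.08% of all genes. Among genes with a mean of 200 FPKM or more these shares were 19.0% and 2.43%. The list had a median difference of 0.83, and 39 of the 41 had a positive value. All 41 were at least 2-fold higher with LPS in both genotypes. The gap lay in the vehicle libraries. There 29 of the 41 were at least 2-fold higher in knockout and none lower, against 4.68% and 2.07% of all genes. In the LPS libraries 4 were higher and none lower, against 4.21% and 1.90%. Ifit1, which binds viral RNA caps, was at 0.887, 1820.3, 15.0 and 2028 FPKM (difference 2.93). Ifit3, a partner of it, was at 1.12, 797, 17.1 and 1096 FPKM (2.64), and Isg15, a ubiquitin-like modifier, at 6.25, 3439, 54.8 and 4675 FPKM (2.50). In all 3 the LPS libraries lay close together and the knockout vehicle library was well above its wild type counterpart. Isg20, an exonuclease, had the lowest value of the list at -0.51 (3.26, 199, 4.49 and 365 FPKM). The 16 interferon-inducible GTPases compared, which attack the vacuoles of intracellular microbes, had a median of 1.00, and 8 were greater in wild type and none in knockout. Gbp5 was at 8.48, 1124, 50.5 and 1543 FPKM (difference 1.99). In the vehicle libraries 15 of the 16 were at least 2-fold higher in knockout, and in the LPS libraries 6 of the 16 were. Gbp4, at 1.91, 35.4, 7.92 and 214 FPKM, was the lowest of 3 members with a negative value, with a difference of -0.95 (-1.54 with 5 added), and its knockout LPS level was 5.92-fold the wild type one.

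Of the 31 antiviral genes with a promoter in the RefSeq table, 15 (48.4%) carried letters that interferon-activated factors are known to bind, and 16 did not. From all genes greater in wild type, 4 promoters are shown, 3 with the motif and that of Csf2 without it, because the 2 kinds of gap differed in how often it occurred. Sequences are 300 bases from RefSeq on GRCm38.p6, written along the gene's strand. They run from 250 bases before to 50 bases after the start of the gene in RefSeq. The Csf2 position given above came from another annotation, and by that position the Csf2 stretch lies wholly before the gene. Capitals mark matches, on either strand, of GAAA repeated after 2 bases of any kind, the core of the interferon-stimulated response element (ISRE), or in Csf2 of TTGCNNAA, bound by C/EBP factors.
Ifit1 promoter, chr19:34640639-34640938, plus strand: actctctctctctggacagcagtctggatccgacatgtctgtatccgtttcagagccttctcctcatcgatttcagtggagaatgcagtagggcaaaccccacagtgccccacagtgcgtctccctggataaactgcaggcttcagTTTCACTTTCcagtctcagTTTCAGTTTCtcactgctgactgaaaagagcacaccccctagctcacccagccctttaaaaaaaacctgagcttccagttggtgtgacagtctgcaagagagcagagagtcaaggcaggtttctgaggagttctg
Ifit3 promoter, chr19:34583279-34583578, plus strand: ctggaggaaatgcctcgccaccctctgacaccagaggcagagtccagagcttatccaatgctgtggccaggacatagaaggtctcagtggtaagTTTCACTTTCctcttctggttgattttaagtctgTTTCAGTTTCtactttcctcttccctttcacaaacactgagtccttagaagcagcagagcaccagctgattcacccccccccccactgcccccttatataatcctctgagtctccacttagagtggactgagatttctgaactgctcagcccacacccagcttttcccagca
Ifi205 promoter, chr1:174031706-174032005, minus strand: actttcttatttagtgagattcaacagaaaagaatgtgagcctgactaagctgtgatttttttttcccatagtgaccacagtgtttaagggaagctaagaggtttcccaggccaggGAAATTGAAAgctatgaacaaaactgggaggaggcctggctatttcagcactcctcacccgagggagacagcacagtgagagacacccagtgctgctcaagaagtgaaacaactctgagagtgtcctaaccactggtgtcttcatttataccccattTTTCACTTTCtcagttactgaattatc
Csf2 promoter, chr11:54249850-54250149, minus strand: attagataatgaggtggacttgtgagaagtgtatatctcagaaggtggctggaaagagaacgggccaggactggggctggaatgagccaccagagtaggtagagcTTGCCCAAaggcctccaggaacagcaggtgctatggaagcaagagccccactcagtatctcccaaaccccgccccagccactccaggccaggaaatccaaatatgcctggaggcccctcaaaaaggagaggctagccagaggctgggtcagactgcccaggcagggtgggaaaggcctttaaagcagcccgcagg

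Ifi205, a nucleic acid sensor of the HIN-200 family chosen for display after its values were seen, was at 1.43, 995, 15.2 and 948 FPKM (difference 2.81). An ISRE match was found in 3.49% of all 27025 promoters in the table and in 3.58% of the 5802 that belong to genes compared here. Among genes greater in wild type with a vehicle gap it was found in 22 of 131 promoters (16.8%), and among those with an LPS gap, such as Csf2, in 0 of 54. At a share of 3.58%, few of 54 promoters would hold it in any case. The ISRE was not alone in this. The GAS letters, TTCNNNGAA, were found in 22 of the 131 (16.8%) and 2 of the 54 (3.70%), against 7.05% of genes compared. The AP-1 letters, TGANTCA, were found in 20 of the 131 (15.3%) and 7 of the 54 (13.0%), against 5.21%. The C/EBP letters were found in 10.8% of all promoters and 8.69% of those of genes compared. They were found in 25 of 131 with a vehicle gap (19.1%) and in 12 of 54 with an LPS gap (22.2%). The NF-kB letters, GGG and TTTCC separated by 2 bases, were found in 1.62% of all promoters and 1.86% of those of genes compared. They were found in 7 of the 131 with a vehicle gap (5.34%) and in 3 of the 54 with an LPS gap (5.56%). Among genes greater in knockout with an LPS gap, 5 of 93 promoters held the ISRE (5.38%). Both strands were searched, the first promoter listed for a symbol was used, overlaps between different motifs were not removed, and a match describes the letters only.

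Of 19 genes of LPS sensing compared, 2 were greater in wild type and 1 in knockout, with a median of 0.11, against 4.35% and 4.08% of all genes. Tlr4 was at 15.8, 27.6, 28.7 and 26.3 FPKM, a difference of 0.89, within 2-fold (1.07 with quantile scaling). Irak3, an inhibitor of the receptor complex, was at 18.2, 167, 43.7 and 138 FPKM (difference 1.49) and Tlr2, the receptor for bacterial lipoproteins, at 209, 1405, 302 and 852 FPKM (1.25). Ly86, the partner of the inhibitory receptor CD180, was at 249, 246, 151 and 317 FPKM (-1.07). Targets and inhibitors of NF-kB were greater in wild type in 7 of 25 and in knockout in none (median 0.56). Tnfaip2 led them at 89.5, 1923, 270.1 and 1333 FPKM (difference 2.11), and Nfkbia, the inhibitor that NF-kB induces against itself, was at 52.5, 1009, 111 and 950.4 FPKM (1.15). Zfp36, which destabilises cytokine transcripts, had the lowest value at -0.69 (88.8, 461, 57.0 and 479.8 FPKM). Of the 25 NF-kB genes, 8 were at least 2-fold higher in the knockout vehicle library, against 4.68% of all genes. None of the 25 passed 2-fold in the LPS libraries. Of the 19 sensing genes, 1 was at least 2-fold higher in the knockout vehicle library and 2 in the knockout LPS library.

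Immediate early transcription factors respond within minutes to many stimuli. Among 17 of them, 2 were greater in wild type and 3 in knockout, against 4.35% and 4.08% of all genes. Atf3, a repressor of cytokine genes, was at 136, 219.6, 66.7 and 385 FPKM (difference -1.82) and Egr1, at 5.78 FPKM in wild type and 3.46 FPKM in knockout without LPS, had a difference of -1.49. Both were lower in the knockout than in the wild type vehicle library. Maff, a small partner of NRF2, was at 1.96, 57.3, 4.21 and 37.9 FPKM (difference 1.40, or 0.94 with 5 added). None of the 6 phosphatases of MAP kinases compared passed 2-fold. Of 16 genes of the STAT3 pathway, 2 were greater in wild type, Cish (1.07, 126, 2.88 and 45.8 FPKM, difference 2.35) and Jak2, and 1 in knockout, the repressor Bcl6 (15.2, 10.7, 10.1 and 32.4 FPKM, difference -2.06).

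Acute phase and antimicrobial genes were mostly higher in knockout macrophages both without and with LPS, so part of that gap cancels in the difference of changes. Lcn2, which withholds iron from bacteria, was at 0.361, 59.2, 24.1 and 246 FPKM (difference 2.17, but 0.47 with 5 added to the FPKM). Saa3, a serum amyloid A, was at 7608, 46089, 32418 and 66561 FPKM (1.56), and S100a8, a subunit of calprotectin, at 34.1, 107, 104 and 162 FPKM (0.98, or 1.27 with quantile scaling). Of the 9 members, 8 were at least 2-fold higher in the knockout vehicle library, against 4.68% of all genes. In the knockout LPS library 5 were, against 4.21%. In the LPS change, 3 were greater in wild type and 1 in knockout, against 4.35% and 4.08%. The 1 was Ptx3, a soluble pattern recognition protein, at 0.0900, 29.6, 0.657 and 96.5 FPKM (difference -1.07, or -0.72 with 0.5 added).

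The interleukin 17 cytokines formed the other extreme greater in knockout. Il17a (chromosome 1, 20730905 to 20734496, plus strand) was listed at 0 in wild type with vehicle and stood at 0.996 FPKM with LPS, and at 0.692 and 54.9 FPKM in knockout (difference -4.05). Il17f, its neighbour on the chromosome, was listed at 0, 1.48, 0.824 and 50.8 FPKM (difference -3.51). Il22, often made by the same lymphocytes, was listed at 0, 3.61, 0.380 and 35.4 FPKM (difference -2.52). All 3 were high in 1 library only, knockout with LPS. Il23r, a receptor subunit of such lymphocytes that missed the mean of 5 FPKM and was looked at after the others, was at 0.0338, 0.417, 0.696 and 12.2 FPKM. These cytokines are known chiefly as products of T and innate lymphoid cells, of whose markers the Cd3 genes were low. Cd3e was at 1.26, 0.467, 1.24 and 0.549 FPKM, Cd3d at 1.72, 0.853, 1.48 and 1.20 FPKM and Cd3g at 1.90, 1.06, 2.46 and 1.19 FPKM. The 15 T and NK cell markers in the table summed to 41.1, 26.4, 40.4 and 43.8 FPKM, with 11 of them above 1 FPKM in any of the 4 libraries and none at 0 in all 4. The part of such cells in these values was not tested.

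Receptors for uptake and the genes that mark resident macrophages leaned towards knockout. Of 20 scavenger and uptake receptors, 5 were greater in knockout and 2 in wild type (median -0.45), against 4.08% and 4.35% of all genes. Mertk, the receptor tyrosine kinase that clears dying cells, was at 39.0, 27.7, 37.2 and 149 FPKM (difference -2.45), with only the knockout LPS library apart from the rest. The IgG receptors Fcgr4 (14.2, 29.3, 16.0 and 118 FPKM, difference -1.81), Fcgr3 (-1.38) and Fcgr1 (-1.37) and the inhibitory receptor Cd300lf were the others, while Clec4e and Marco (198, 1030.1, 1646 and 2759 FPKM, difference 1.63) were greater in wild type. Of 20 markers of resident peritoneal macrophages, 6 were greater in knockout and 1 in wild type (median -0.55). All 23 such markers in the table summed to 3943, 11228, 2608 and 7361 FPKM, so the sum was lower in knockout both without and with LPS. Most of the gap between the LPS sums came from Serpinb2, the 1 marker greater in wild type, at 32.6, 5409, 129 and 1982 FPKM. Selp, encoding P-selectin, was at 11.7, 12.2, 0.732 and 6.71 FPKM (-2.10) and Alox15, the 12/15-lipoxygenase, at 264, 200.3, 135 and 223 FPKM (-1.13). Gata6, the factor that defines resident peritoneal macrophages, was at 15.7, 13.8, 3.49 and 4.84 FPKM, lower in both knockout libraries, and its difference of -0.56 was within 2-fold. Genes of lipid efflux showed 3 of 18 greater in knockout and none in wild type (median -0.43), with Apoc1, an apolipoprotein, lowest at 48.3, 25.4, 6.65 and 14.5 FPKM (-1.92) and Abca1, the cholesterol exporter, at 40.1, 35.0, 31.6 and 75.2 FPKM (-1.41).

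Some genes greater in knockout were lower with LPS in both genotypes, by less in knockout, where they started lower. Cxcr4, the receptor of the chemokine CXCL12, was at 225, 4.81, 53.5 and 7.89 FPKM (difference -2.66). Engase, an enzyme that removes sugar chains from proteins, was at 85.6, 0.562, 9.56 and 0.309 FPKM (difference -2.78). Both LPS libraries were low for these 2, and the wild type vehicle library was the highest. In Enc1, an actin-binding protein, the order of the genotypes turned over, with levels of 15.1, 0.899, 2.02 and 4.40 FPKM (difference -3.92), and the same was seen in Mxi1, an antagonist of MYC, at 13.1, 2.83, 5.90 and 9.46 FPKM (-2.47). Rgs1, a brake on G protein signalling, was at 59.0, 47.4, 14.5 and 61.6 FPKM (difference -2.33), low in the knockout vehicle library alone. Pde7b (0.589, 1.86, 1.11 and 19.2 FPKM), a phosphodiesterase, Clic5 (0.312, 2.48, 1.30 and 31.1 FPKM), a chloride channel protein, and Tmem171 (0.572, 2.84, 0.422 and 17.0 FPKM) were high in knockout with LPS alone, with differences of -2.41, -2.39 and -2.38.

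Among metabolic lists, the amino acid stress genes, targets of the factor ATF4, had 6 of 18 greater in wild type and none in knockout (median 0.55). The shares of all genes were 4.35% and 4.08%. Slc7a11, the cystine transporter, was at 9.23, 689, 59.7 and 664 FPKM (difference 2.62), with a gap in the vehicle libraries. Asns, the asparagine synthetase, was at 2.47, 19.5, 3.74 and 6.70 FPKM (difference 1.86), with a gap in the LPS libraries. Antioxidant genes were greater in wild type in 4 of 19 (median 0.52), among them Sod2, the mitochondrial superoxide dismutase (30.4, 547, 165 and 668 FPKM, difference 2.12), while Hmox1, the haem oxygenase, was within 2-fold (313, 796, 501 and 872 FPKM, difference 0.54). Of 22 genes of glycolysis and hypoxia, 2 were greater in knockout, the hypoxia factor Hif1a (80.1, 124, 85.0 and 371 FPKM, difference -1.49) and its target Vegfa (-1.45), and none in wild type. Of 19 cholesterol synthesis genes 1 passed, Sqle (1.18, or 0.87 with 5 added). Of 21 antigen presentation genes 3 were greater in wild type, led by H2-Q7 (9.24, 77.4, 26.5 and 60.2 FPKM, difference 1.79), whose reads can be shared with near-identical class I genes.

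Surface molecules through which macrophages meet T cells also had members on either side. Icam1, an adhesion molecule, was at 30.8, 334, 97.1 and 266 FPKM (difference 1.95), and Vcam1, Icosl and the checkpoint ligand Cd274 were likewise greater in wild type, 4 of 10 in all. Cd86, a costimulator, was at 53.2, 116, 24.2 and 174 FPKM (difference -1.68) and alone in being greater in knockout. Of 14 genes of inflammasomes and cell death, the peptidoglycan sensor Nod2 (1.18, 45.1, 4.42 and 31.4 FPKM, difference 1.82) and the death receptor Fas were greater in wild type. Of the 3 adrenergic and adenosine receptors compared, the adenosine receptor Adora2b was at 1.13, 80.4, 3.89 and 48.7 FPKM (difference 1.91) and Adora2a was also greater in wild type. Of 6 cell cycle genes 1 passed, Mki67, at 1.95, 46.6, 8.15 and 35.8 FPKM (difference 2.01). Of 13 genes of alternative activation, Ccl17 was greater in wild type and Arg1 and Cd209a in knockout. Among the neighbours of Chrna7 on chromosome 7, 5 genes were compared. Mphosph10 was at 8.62, 24.3, 11.8 and 14.9 FPKM (difference 1.08) and Tjp1 at 4.60, 13.0, 2.78 and 19.3 FPKM (-1.11), and the other 3 were within 2-fold. With 5 added these 2 values were 0.86 and -0.74, also within it. Neither of the 2 cholinergic genes compared, Ly6e and Lynx1, passed.

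Genes that serve as a baseline mostly stayed within 2-fold, as did 6847 of all 7477 genes. The counts of 0 or 1 in these short lists lie near the shares of all genes, 4.35% and 4.08%. None of 30 genes of oxidative phosphorylation passed 2-fold in either direction (median 0.18), and of 30 ribosomal protein genes 1 did, Rpl30 (23.4, 56.9, 38.7 and 35.3 FPKM, difference 1.38), with a list median of -0.09, or 0.02 with quantile scaling. Of 17 housekeeping genes 1 passed, Ppia (375, 797, 1049 and 912 FPKM, difference 1.29). None of 12 heat shock genes passed either (median 0.27). Reads of Rpl30, Ppia, Ifit3, Ly6c2, Ear2 and the interferon-inducible GTPases can be shared with close copies or processed pseudogenes, and how the authors counted such reads is not given in the sources used here.

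**Figure D4:**
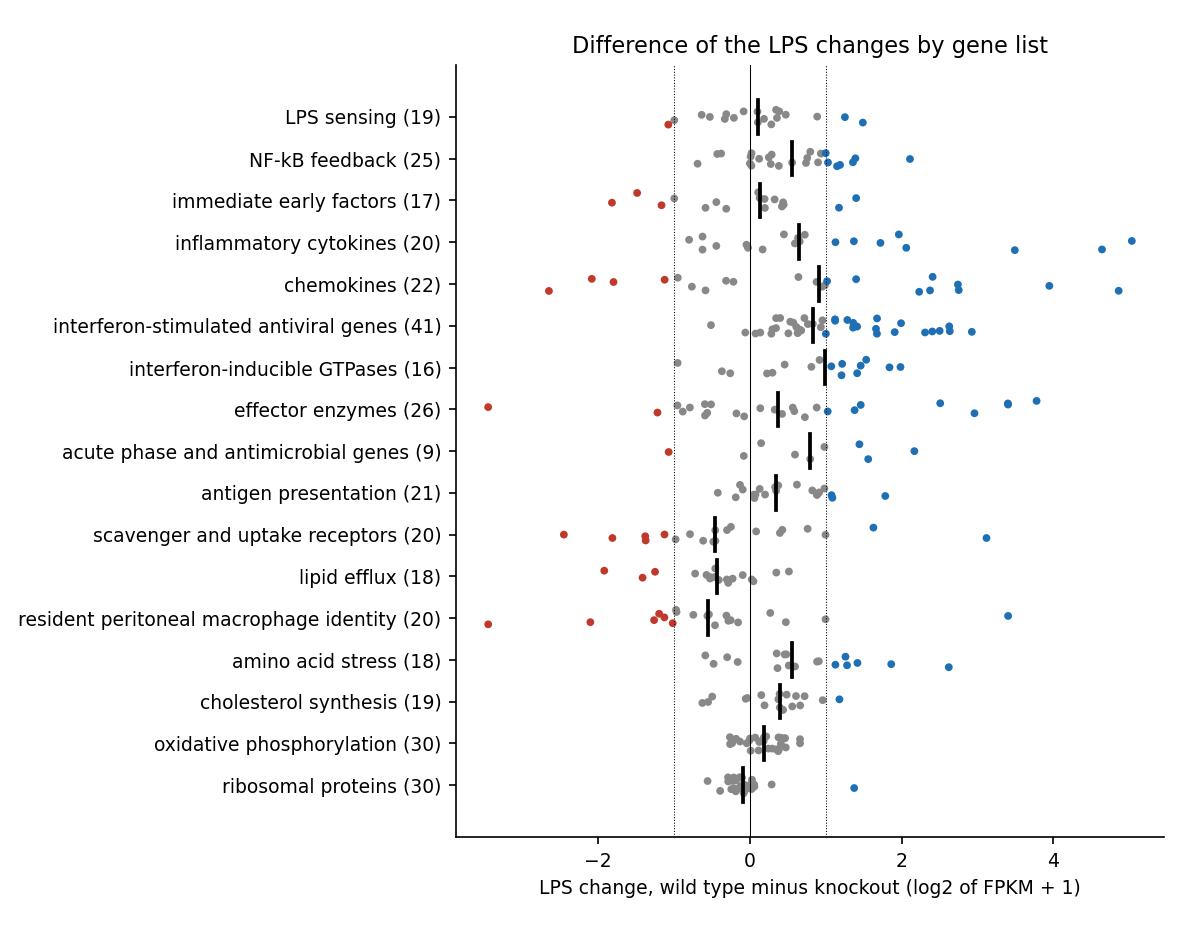
Wild type minus knockout LPS change (log2 of FPKM + 1) of each gene, 1 point per gene, for 17 gene lists with the number of genes compared in brackets. Thick bars are list medians and dotted lines mark 1 and -1, beyond which points are coloured blue (greater in wild type) or red (greater in knockout). Cytokines, chemokines and antiviral genes reach far to the right, and oxidative phosphorylation and ribosomal protein genes stay within 1 of 0 apart from Rpl30.

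Markers of other cell types were examined because the share of such cells can vary between preparations. B cell markers had 0 of 9 genes past 2-fold, mast cell markers 0 of 6 and neutrophil markers 0 of 5. In lists so short these counts lie near the shares of all genes, 4.35% and 4.08%. The 12 mast cell markers in the table summed to 229, 479, 171 and 408 FPKM, higher with LPS in both genotypes. Much of that rise came through Hdc (2.64, 171, 1.66 and 184 FPKM). Of the 6 mast cell markers compared, 1 was at least 2-fold higher with LPS in wild type and 2 in knockout. Markers of recruited macrophages and monocytes had 1 of 10 greater in wild type, Ly6c2 (1.97, 13.4, 76.6 and 184 FPKM, difference 1.02, or 0.19 with 5 added), and 2 in knockout, Ccr2 (17.8, 1.77, 11.9 and 4.41 FPKM, difference -1.51, or -0.90 with 5 added) and Cd209a (19.8, 7.86, 0.156 and 0 FPKM). Summed over 15 such markers, of which 2 were at 0 in all 4 libraries, the level was 441, 600.4, 592 and 965 FPKM. The 18 neutrophil markers in the table, 5 of them at 0 in all 4 libraries, summed to 172, 243, 236 and 381 FPKM. The 10 eosinophil markers, 3 at 0 in all 4, summed to 29.4, 20.7, 6.98 and 6.23 FPKM, mostly through Ear2 (24.8, 18.2, 2.39 and 1.38 FPKM), which was low in both knockout libraries. The 13 B cell markers summed to 330.3, 254, 306 and 309 FPKM, and the 16 mesothelial and fibroblast markers to at most 4.75 FPKM in any library. The 9 erythroid and platelet markers, 1 at 0 in all 4, summed to 206, 616, 965 and 1431 FPKM, through the chemokines Pf4 and Ppbp of that list. The 11 dendritic cell markers summed to 33.5, 54.7, 23.1 and 74.8 FPKM. The part of such cells in the differences between the genotypes was not tested.

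The libraries given nicotine held the same comparison in cells of the same labels, and shared no library with it. They are not replicates, since nicotine was present, and fewer genes were at least 2-fold higher with LPS there, 487 in wild type (6.51%) and 647 in knockout (8.65%). Of the 325 genes greater in wild type, 215 had a positive value there too, against 51.3% of all genes, and 28 were again at least 1, against 0.990%. In the opposite direction, 19 of the 325 were at most -1. Of the 305 genes greater in knockout, 224 had a negative value with nicotine, against 48.7% of all genes, 30 were at most -1, against 2.23%, and 3 were at least 1. Across the 7477 genes the 2 differences had a Pearson correlation of 0.26 and a Spearman correlation of 0.27, as a description.

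The gaps between the genotypes were set against the nicotine libraries in the same way. Of the 163 genes greater in wild type with a vehicle gap, 149 were also higher in knockout in the pair with nicotine and no LPS, against 51.0% of all genes, and 83 were at least 2-fold higher, against 2.85%. Of the 70 genes greater in knockout with a vehicle gap, 67 were lower in knockout in that pair, against 48.9%, and 28 by at least 2-fold, against 1.79%. Of the 113 genes greater in knockout with an LPS gap, 93 were higher in knockout in the pair with nicotine and LPS, against 48.0%, and 26 by at least 2-fold, against 4.51%. Of the 71 genes greater in wild type with an LPS gap, 55 were lower in that pair, against 52.0%, and 11 by at least 2-fold, against 2.02%. Across genes the vehicle gap had a Pearson correlation of 0.74 with the gap under nicotine alone, and the LPS gap of 0.54 with the gap under nicotine and LPS.

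Single genes showed each outcome. Ccl5 had levels of 30.1, 2087, 274 and 3286 FPKM with nicotine, in the same order of genotype and LPS, and a difference of 2.49, so both its gap without LPS and its difference of changes were seen again. Il1b had 0.850, 63.2, 10.7 and 1076 FPKM, with the knockout again higher without LPS, but its knockout LPS level was also higher and the difference was -1.41. Csf2 had 0, 0.607, 0.426 and 3.05 FPKM, so its high level in wild type with LPS was not seen under nicotine (difference -0.82). Ifnb1 was listed at 0 in both libraries without LPS and at 20.6 FPKM in wild type and 134 FPKM in knockout with LPS (difference -2.64). Il17a had 0.0824, 0.0865, 0.911 and 9.31 FPKM (-2.43), Il17f 0.164, 0.0859, 1.33 and 12.4 FPKM (-2.62) and Ccl12 0.247, 0.257, 2.01 and 5.37 FPKM (-1.07), each again highest in knockout with LPS. Arg1 had 9.29, 14.2, 46.2 and 45.2 FPKM and a difference of 0.59, with the knockout higher both without and with LPS. Of the 41 antiviral genes, 25 were at least 2-fold higher in knockout with nicotine and no LPS, against 2.85% of all genes. Their median difference of changes with nicotine was -0.39, however. That of the interferon-inducible GTPases was -1.25, with 12 of 16 greater in knockout, against 2.23% of all genes.

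**Figure D5:**
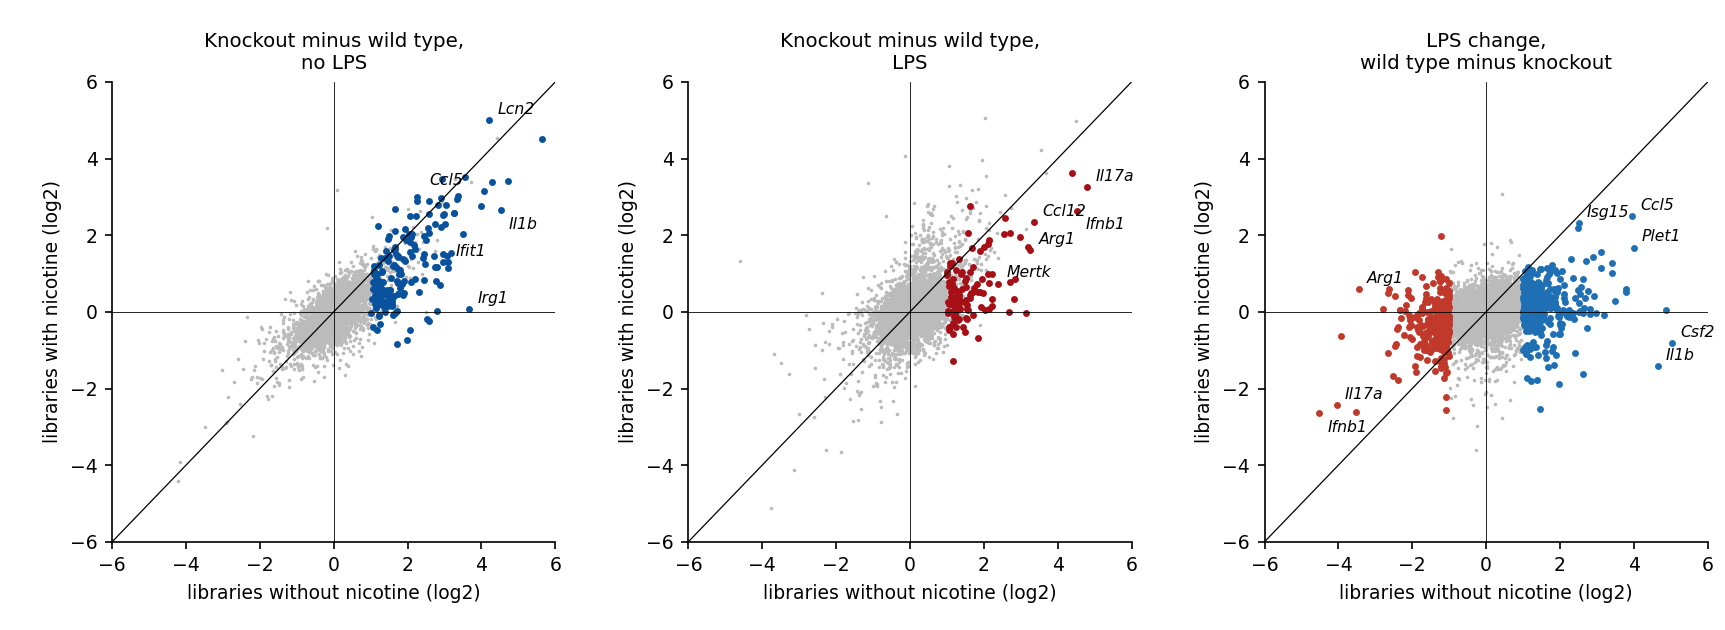
Each gene in the 4 libraries without nicotine (horizontal axes) against the 4 libraries with it (vertical axes), log2 of FPKM + 1. Left, the gap between genotypes without LPS, with the 163 genes greater in wild type through the vehicle gap in blue; middle, the gap with LPS, with the 113 genes greater in knockout through the LPS gap in red; right, the difference of the LPS changes, with the 325 and 305 genes in blue and red. Coloured points of the left plot lie mostly above 0 on the vertical axis (149 of 163), as do those of the middle plot (93 of 113).

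The one test the design allows fits LPS, genotype, nicotine and their pairwise interactions to all 8 libraries. Its spread comes from the remaining degree of freedom, moderated towards a value that limma estimates from all genes. That degree of freedom holds how far nicotine altered the difference of changes, and is not a spread between replicates. For 7399 genes averaging 5 FPKM or more over the 8 libraries, limma with Benjamini-Hochberg adjustment called 0 genes (0%) for the LPS by genotype interaction, and 724 had an unadjusted p under 0.05. The estimate averages the difference with and without nicotine. For Ifnb1 it was -3.58 ± 0.51 (SE, limma adjusted p = 0.504), for Il17a -3.24 ± 0.53 (adjusted p = 0.504), for Ccl5 3.22 ± 0.41 (adjusted p = 0.504) and for Csf2 2.11 ± 1.49 (adjusted p = 0.653). None of the genes tested therefore has a difference between the genotypes shown to exceed that spread. Plet1, Enc1, Clic5, Pde7b and Tmem171, described above, missed the mean over the 8 libraries and were not tested. All values above stand as descriptions of single libraries. A p-value that misses the threshold does not show that the LPS responses were alike.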

How the data were processed

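The labels describe peritoneal cells plated, washed after adhesion and treated the next day, and poly(A) RNA prepared with a kit that does not mark strand. The authors deposited 1 FPKM value for each gene in each library. Per the submitters' processing notes, HISAT2, Cufflinks, Cuffdiff, CASAVA 1.8 and the build mm10 were used, in roles the notes do not give. The sources used here do not state the annotation, filters, scaling or depth, so counting error is unknown. Differences were taken on log2(FPKM + 1) between single libraries, and 2-fold (1 on the log2 scale) was used as a threshold for description, with no p-value. Of 24341 rows, the lower of each of 2 repeated symbols was dropped to leave 24339 genes. The interaction was fitted with limma 3.58.1 in R 4.3.3 (trend, Benjamini-Hochberg), and the code was tested on simulated data. Without strand, reads of a gene and its antisense partner cannot be told apart. Positions came from a GRCm38 annotation matched by symbol for 96.6% of the genes, and promoters from RefSeq on GRCm38.p6.

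The genes and gene lists were chosen with earlier results of these data known. Genes named in the text are the 15 at each end of the difference, predicted genes, clone names, small RNAs and date-like symbols left out, the highest and lowest of each list, the 5 leading genes of each pattern and 14 genes of the study's question. Others named, such as Ifit3, Gata6, Il23r and the markers of other cells, were chosen after their values were seen. Alternatives were other pseudocounts, filters and scalings.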

Additional observations from a re-analysis of the deposited data

Results flagged for a closer look

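In 2 genes that could be named, the genotypes moved in opposite directions by at least 2-fold with LPS. Gprc5b, an orphan G protein-coupled receptor, was at 5.01, 15.3, 6.58 and 1.75 FPKM, in the order wild type with vehicle, wild type with LPS, knockout with vehicle and knockout with LPS. It was 2.71-fold higher with LPS in wild type and the knockout LPS library was the lowest of the 4, and its difference of changes was 2.90. With nicotine the difference was 1.44. Il20rb, a receptor subunit for cytokines of the interleukin 20 family, was at 3.63, 9.64, 15.8 and 5.19 FPKM. Its highest library was knockout with vehicle, and its difference was 2.64 without nicotine and 0.10 with it. Each direction rests on 1 library per group, and the difference between the genotypes was not tested among the 4 libraries.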

How the results depend on the processing

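There were 8 alternatives, namely other pseudocounts, filters on low values and scalings, of which 1 filter (at least 5 FPKM in 2 or more libraries) was chosen after seeing the data. Of 112 named genes, 76 could be valued under all 8, since stricter filters drop genes. Of the 852 values obtained, 831 stayed on the same side of 2-fold, 13 fell inside it and 8 passed it. No value past 2-fold changed sign, and Gpx1, at -0.18, was 0.01 with quantile scaling. The medians of 37 lists were recomputed under 7 alternatives, and 8 lists changed sign under at least 1, in 16 of 256 values. These were cell cycle, neutrophil, mast cell, recruited macrophage and monocyte, MAP kinase phosphatases, alternative activation, ribosomal proteins and the neighbours of Chrna7, of which recruited markers moved from -0.32 to 0.10 with a mean of 20 FPKM or more. The median over all genes, -0.01, was 0.02 with that filter and 0.00 with median centring. Counts moved more. With a pseudocount of 5 in place of 1, 202 genes were greater in wild type and 168 in knockout, and 17 of them held in the nicotine libraries, against 325, 305 and 58. Genes greater in knockout numbered 463 when the mean had to reach 1 FPKM, 503 without a filter and 125 when it had to reach 20 FPKM. That last filter left 1552 genes past 2-fold with LPS in wild type and 1326 in knockout, against 2811 and 2394, and 28 that held in the nicotine libraries, by construction among fewer genes. The limma interaction called 0 genes under all 9 alternatives run, with 76 to 1142 at an unadjusted p under 0.05. No paired analysis was possible because each group is 1 library and no replicate numbers are shared, and for the same reason no library could be left out. Every difference rests on 4 single libraries.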
